A study of Mus musculus with 2 samples.

Results

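The 35 genes described here carry sugar breakdown and the response to low oxygen in CD8 T cells from mouse tumours. They were chosen by symbol, and all 35 are among the 32285 genes in the files: 20 belong to glycolysis (glucose and lactate transporters and the enzymes between them) and 15 to the hypoxia response. The libraries were compared with each other, and so were, within each library, cells that had and cells that lacked transcripts of Mki67 (a marker of dividing cells), Havcr2 (the inhibitory receptor Tim-3, found on exhausted T cells), Gzmc (granzyme C, a killing protease of strongly activated T cells) and Tcf7 (the factor TCF-1 of naive, memory and stem-like T cells). In both libraries, glycolysis transcripts were higher in Havcr2-positive cells and lower in Tcf7-positive cells, and so were most hypoxia members. Between libraries, the glycolysis members leaned higher in the NK-depleted library, and of the hypoxia members Bnip3 and Ddit4 were higher and Mxi1 and Bhlhe40 lower.

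Glycolysis splits glucose into pyruvate and yields ATP without oxygen. Activated T cells run it fast and turn much of the pyruvate into lactate, which leaves the cell. When oxygen is scarce, prolyl hydroxylases stop marking the factor HIF-1 alpha for destruction, and it switches on glycolysis enzymes together with genes that restrain mitochondria. The factor can also build up after T cell receptor signals, so its targets are not read here as a measure of oxygen.

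Both groups were wild-type (WT) mice carrying MC38, a mouse colon carcinoma line, and tumours were taken on day 9 after implantation. The control library has the treatment label PBS and a library name with the abbreviation Iso, so the labels do not settle what the controls were injected with. The NK-depleted library came from mice given an antibody against NK1.1, a surface receptor of natural killer (NK) cells that some T cells also carry. Tumours were digested with collagenase I and IV, live CD8+ cells were isolated on a flow sorter, and 10x Genomics 5' libraries were made. Each group is 1 library, the number of mice behind it and the mice's age are not given in the sources used here, and no test between groups was possible.

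Cells had to have at least 500 detected genes, a mitochondrial share of transcripts under 10%, and at least 1 transcript each of Cd3d, Cd3e or Cd3g and of Cd8a or Cd8b1. This left 6901 control cells and 8164 NK-depleted cells, with medians of 11444 and 12289.5 unique molecular identifiers (UMIs, 1 per captured transcript). Trac and Trbc2, the T cell receptor constant genes, which the gate did not use, were abundant in both libraries: Trac was at 836 CPM (UMIs scaled to a common total, as defined below) in control cells and 704 CPM in NK-depleted cells, and Trbc2 at 1641 and 1420 CPM. The 5 NK cell markers together were at 99.2 and 116 CPM. Of these, Ncr1, which defines NK cells, was at 0.169 and 0.0239 CPM and Tyrobp at 33.0 and 17.1 CPM. The others were higher in NK-depleted cells: Fcer1g at 41.7 and 64.3 CPM, Eomes at 20.5 and 29.1 CPM and Klrb1c at 3.70 and 5.13 CPM. The 7 dendritic cell markers were all detected and together reached 225 and 146 CPM, and 182 (2.64%) and 134 (1.64%) of the gated cells carried at least 3 dendritic cell or 3 macrophage markers. Values without those cells are given where they change a count. The libraries shared 26 gated barcodes.

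The factor HIF-1 binds DNA at the letters ACGTG or GCGTG, and the RefSeq promoters (build GRCm38.p6, 250 bases before to 50 bases after the start of each gene) of members with the largest differences between libraries are shown because they differ in how many such matches they hold. Capitals mark ACGTG or GCGTG read on either strand. The letters CACGTG count once on each strand. Bnip3 (chr7:138909457-138909756, minus strand) held 5 matches, Ddit4 (chr10:59951721-59952020, minus strand) 2, Tpi1 (chr6:124814109-124814408, minus strand) 0 and Pgk1 (chrX:106186850-106187149, plus strand) 2, and these are the 4 members with the highest ratio among those past the expression filter used below and in the table. Mxi1 (chr19:53310256-53310555, plus strand, the first of 3 promoters in the table) held 0 and Hif1a (chr12:73907617-73907916, plus strand) 3, and these are the lowest 2 with a promoter in the table, since Bhlhe40 had none there.
Bnip3: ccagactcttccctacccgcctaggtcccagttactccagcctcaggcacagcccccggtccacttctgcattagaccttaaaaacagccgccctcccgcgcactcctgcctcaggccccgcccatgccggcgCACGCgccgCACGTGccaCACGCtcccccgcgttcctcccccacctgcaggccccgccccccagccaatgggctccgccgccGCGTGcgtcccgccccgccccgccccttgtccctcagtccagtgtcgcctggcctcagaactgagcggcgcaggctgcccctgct
Ddit4: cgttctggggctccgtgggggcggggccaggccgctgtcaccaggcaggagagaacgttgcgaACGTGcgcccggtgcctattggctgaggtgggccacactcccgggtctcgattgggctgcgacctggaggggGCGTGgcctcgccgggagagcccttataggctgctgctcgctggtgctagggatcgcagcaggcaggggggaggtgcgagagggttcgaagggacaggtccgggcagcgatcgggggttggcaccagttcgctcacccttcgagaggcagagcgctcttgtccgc
Tpi1: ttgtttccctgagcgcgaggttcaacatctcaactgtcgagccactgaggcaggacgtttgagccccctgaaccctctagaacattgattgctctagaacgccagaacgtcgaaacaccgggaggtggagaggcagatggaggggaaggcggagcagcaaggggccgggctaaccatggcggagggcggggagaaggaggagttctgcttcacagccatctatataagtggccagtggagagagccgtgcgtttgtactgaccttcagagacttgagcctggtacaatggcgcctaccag
Pgk1: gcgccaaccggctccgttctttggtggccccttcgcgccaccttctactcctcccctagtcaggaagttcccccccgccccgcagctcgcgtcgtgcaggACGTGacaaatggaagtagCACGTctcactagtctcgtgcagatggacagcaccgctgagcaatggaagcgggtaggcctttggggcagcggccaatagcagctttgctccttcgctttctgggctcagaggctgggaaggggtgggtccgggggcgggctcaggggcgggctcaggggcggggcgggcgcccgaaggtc
Mxi1: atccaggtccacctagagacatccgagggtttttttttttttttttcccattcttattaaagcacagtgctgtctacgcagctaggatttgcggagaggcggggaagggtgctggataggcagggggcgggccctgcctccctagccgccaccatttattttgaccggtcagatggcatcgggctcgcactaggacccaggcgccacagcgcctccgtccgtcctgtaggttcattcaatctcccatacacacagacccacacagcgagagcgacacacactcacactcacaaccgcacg
Hif1a: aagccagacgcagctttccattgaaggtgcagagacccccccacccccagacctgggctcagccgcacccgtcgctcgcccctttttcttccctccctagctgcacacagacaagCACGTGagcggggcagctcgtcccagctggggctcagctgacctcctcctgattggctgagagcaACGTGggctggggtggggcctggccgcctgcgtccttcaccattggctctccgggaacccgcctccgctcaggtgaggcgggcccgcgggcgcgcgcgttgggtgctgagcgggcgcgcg
Of the 19 glycolysis members with a promoter in the table, 14 (73.7%) held a match, as did 11 of 13 hypoxia members (84.6%). The background was 43.8% of all 32851 promoters in the table and 66.4% of 5958 genes that passed the expression filter used below. The count of matches did not order the members by their difference between libraries: Ldha held 7 matches and Tpi1, with the larger ratio, 0. A match is a string of letters and no evidence of binding.

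Levels are counts per 1000000 UMIs (CPM) over the summed UMIs of all gated cells of a library. Where 2 values are given for a gene, the first is the control and the second the NK-depleted library unless stated otherwise. A ratio is given with its exact 95% binomial interval, which covers counting error only and not the spread between mice. A member counts as higher or lower at a log2 ratio of at least 0.32 in that direction (5 UMIs for every 4), called the fold counted below, among genes with a mean of the libraries of at least 10 CPM. This filter kept 7446 genes and 30 members, 18 of glycolysis and 12 of hypoxia. The 5 members below it were Pfkfb4, Aldoc, Egln3, Ak4 and Vegfa. As this is a 5' assay with 1 tag per transcript, CPM values do not scale with gene length, but capture differs between genes. Ratios of single members are therefore taken within a gene. Sums over members, used further below, are weighted toward the genes with the most UMIs.

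Of the 18 glycolysis members, NK-depleted cells had more of 6 and less of 0 by the fold counted, and the median log2 ratio was 0.26. Of all genes past the filter, 5.88% were higher and 11.4% lower, with a median of -0.063. Among the glucose transporters, Slc2a1 (GLUT1) was at 31.5 and 33.6 CPM and Slc2a3 (GLUT3) at 60.6 and 67.1 CPM. Neither reached the fold counted. Hk1, the housekeeping hexokinase that traps glucose in the cell, was at 79.2 and 73.9 CPM. Hk2, the inducible hexokinase, was at 17.9 and 23.3 CPM, a ratio of 1.30 (1.23 to 1.38). The hexokinases thus pointed in opposite directions, with the difference past the fold counted for Hk2 and not for Hk1.

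Gpi1, the isomerase after hexokinase, was at 299 and 356 CPM. The phosphofructokinases, which control entry into the pathway, differed little: Pfkl was at 34.7 and 34.5 CPM and Pfkp at 190 and 216 CPM. Pfkfb3, which makes the activator of phosphofructokinase, had the lowest ratio of the glycolysis members, at 23.7 and 20.8 CPM (0.879, 0.832 to 0.929). Aldoa (chr7:126795234-126800751), the aldolase that splits the sugar, was at 620 and 847 CPM, 1.37-fold higher (1.35 to 1.38). Tpi1 (chr6:124810586-124814296), which interconverts the fragments made by aldolase, was at 240 and 355 CPM, 1.48-fold higher on 25576 and 44486 UMIs, the largest ratio of the 18. The ratios past the fold counted in this stretch were those of Hk2, aldolase and triose phosphate isomerase, and not those of the phosphofructokinases.

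In the energy-yielding steps, Pgk1 (chrX:106187100-106203699), the kinase that makes the first ATP, was at 325 and 450 CPM, 1.38-fold higher (1.37 to 1.40). Pkm, pyruvate kinase, was at 507 and 682 CPM, 1.35-fold higher (1.33 to 1.36). Gapdh, the dehydrogenase that opens this phase, was at 1823 and 2248 CPM (1.23-fold), Ldha, which turns pyruvate into lactate, at 686 and 837 CPM (1.22-fold), and Pgam1, a mutase, at 170 and 204 CPM (1.202-fold). These 3 ratios were above 1 and short of the fold counted. Eno1, enolase, was at 493 and 559 CPM (1.13-fold). Its reads are hard to tell from those of Eno1b, a near-identical copy of the gene, so its ratio is uncertain. Of the lactate carriers, Slc16a3 (MCT4, an exporter) was at 29.0 and 37.99 CPM, 1.31-fold higher on 3092 and 4762 UMIs, and Slc16a1 (MCT1) at 15.1 and 16.8 CPM.

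Of the 12 hypoxia members past the filter, 2 were higher (Bnip3 and Ddit4) and 2 lower (Mxi1 and Bhlhe40), beside 5.88% of all genes higher and 11.4% lower, and their median log2 ratio was 0.042. With 12 members, both counts are near that background, and the result is in the single members. Bnip3 (chr7:138890836-138909519), a mitochondrial protein that promotes the removal of mitochondria, was at 19.5 and 39.1 CPM, a ratio of 2.01 (1.91 to 2.11). Its relative Bnip3l was at 115 and 103 CPM and did not share the difference. Ddit4 (chr10:59949669-59951834), a brake on the growth kinase mTORC1 that stress and glucocorticoids also induce, was at 39.7 and 70.8 CPM, a ratio of 1.79 (1.72 to 1.85). Mxi1 (chr19:53310518-53375810), an antagonist of Myc, was at 37.3 and 24.1 CPM, 1.55-fold lower (1.47 to 1.62). Bhlhe40 (chr6:108660629-108666925), a repressor that T cells also induce on activation, was at 301 and 239 CPM, 1.26-fold lower (1.24 to 1.28), which is just past the fold counted. Without the cells that carried dendritic cell or macrophage markers, the number of lower hypoxia members was 1. The share of all genes lower without those cells is not given here.

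The sensors and the factor itself gave small differences. Hif1a was at 429 and 372 CPM, a ratio of 0.868 (0.857 to 0.879), short of the fold counted. Egln1, the main oxygen-sensing prolyl hydroxylase, was at 55.3 and 55.0 CPM. Among the targets, Pdk1, which restrains the oxidation of pyruvate in mitochondria, was at 27.9 and 31.9 CPM. Higd1a, a protein of the respiratory chain, was at 167 and 199 CPM. P4ha1, a collagen hydroxylase, was at 36.4 and 38.7 CPM, Ankrd37 at 12.4 and 14.8 CPM, and Kdm3a, a histone demethylase, at 26.3 and 26.3 CPM. The hypoxia members past the filter thus ranged from 1.55-fold lower (Mxi1) to 2.01-fold higher (Bnip3).

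The 5 members under the filter rested on few transcripts. Vegfa, the vessel growth factor, had 127 and 349 UMIs (1.19 and 2.78 CPM), a ratio of 2.33 (1.90 to 2.88). Egln3, a hydroxylase that HIF itself induces, was at 5.10 and 7.56 CPM and Aldoc, a second aldolase, at 4.60 and 7.76 CPM. Pfkfb4 was at 1.06 and 1.13 CPM and Ak4, a mitochondrial adenylate kinase, at 0.470 and 0.582 CPM, with intervals that included 1.

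**Figure D1:**
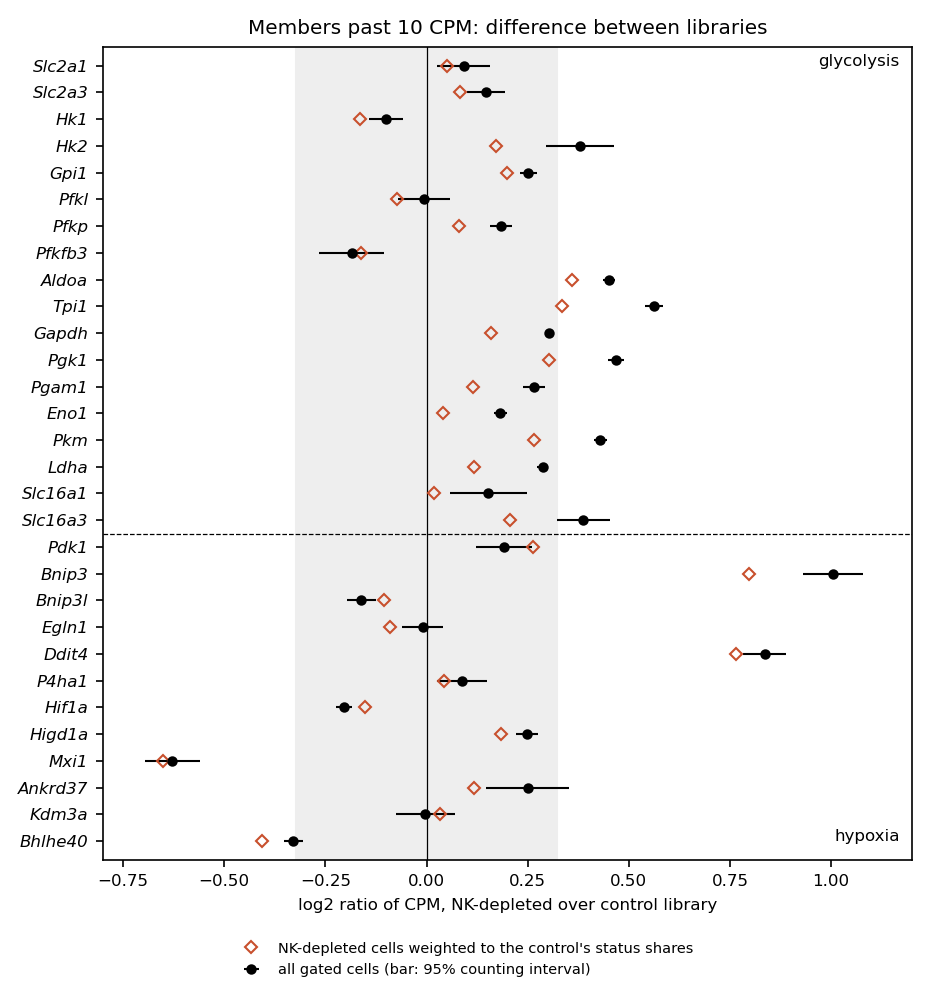
The horizontal axis is the log2 ratio of CPM, NK-depleted over control library, for the 30 members past 10 CPM. Filled points are all gated cells with their 95% counting interval, open diamonds are the same ratio with NK-depleted cells weighted to the control's shares of status combinations, and the grey band spans the fold counted, 0.32 on the log2 scale, either way. Bnip3 (1.005) and Ddit4 (0.84) lie farthest right and Mxi1 (-0.63) farthest left, and the open diamonds of the glycolysis members other than Pfkfb3 lie left of the filled points.

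The libraries differed in the make-up of their cells, which bears on every value above. Of gated cells, 33.7% of the control and 45.5% of the NK-depleted had an Mki67 UMI, 38.5% and 47.5% a Havcr2 UMI, 15.1% and 45.1% a Gzmc UMI, and 28.9% and 31.4% a Tcf7 UMI. Thinned to 5000 UMIs per cell, with 520 and 641 shallower cells left out, these shares were 24.0% and 34.7%, 26.9% and 32.9%, 8.76% and 31.0%, and 20.5% and 20.5%. Free RNA limits how these shares can be read. In cells of the gate with UMIs of at least 3 naive-like markers (median 14079.5 and 12721.5 UMIs), 9.47% and 33.3% had a Gzmc UMI, 22.0% and 26.0% a Havcr2 UMI and 21.8% and 34.6% an Mki67 UMI. In dendritic cells outside the gate (68 and 36 barcodes, median 1192 and 2593.5 UMIs), 26.5% and 27.8% had a Gzmc UMI and 5.88% and 16.7% a Havcr2 UMI. A Tcf7 UMI was found in 22.1% and 5.56% of them, and an Mki67 UMI in 2.94% and 5.56%. Status by Gzmc is therefore a weak split of cells in both libraries. The source of the Tcf7 UMIs in control dendritic cells was not tested, and free RNA among them would limit the split by Tcf7. Of the cells with naive-like markers, 90.5% in the control and 80.4% in the NK-depleted library had a Tcf7 UMI.

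When NK-depleted cells were weighted to the control's shares of the 16 combinations of the 4 status genes, the glycolysis median log2 ratio was 0.12 in place of 0.26. Of the 18, 2 were still higher, Aldoa (log2 ratio 0.36) and Tpi1 (0.34), where the background was 2.32%. Hk2 then had a log2 ratio of 0.17, Pgk1 of 0.30, Pkm of 0.27 and Slc16a3 of 0.21. The hypoxia counts stayed at 2 higher and 2 lower, with log2 ratios of 0.80 for Bnip3, 0.76 for Ddit4, -0.65 for Mxi1 and -0.41 for Bhlhe40. Before weighting, 11.4% of all genes were lower, and the share lower after weighting is not given here. At equal status shares the glycolysis median was thus smaller, and Bnip3, Ddit4, Mxi1 and Bhlhe40 remained past the fold counted. Depth and free RNA also set the status of a cell, and their part in this was not tested.

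A similar picture came from the 8 groups of cells made by having or lacking each status gene. Bnip3 was higher in the NK-depleted library in 8 of 8 groups, with log2 ratios from 0.74 to 1.07, and Ddit4 in 8 of 8, from 0.62 to 1.09. Mxi1 was lower in 8 of 8 (-1.10 to -0.49) and Bhlhe40 in 7 of 8 (-0.46 to -0.29). Of the glycolysis members, Aldoa, Tpi1 and Pgk1 were each higher in 7 of 8, Pkm in 6, Slc16a3 in 4 and Hk2 in 2. Aldoa, Tpi1 and Pgk1 fell short of the fold counted in Gzmc-positive cells, where 0 of 18 glycolysis members were higher, 1 was lower (Pfkfb3, -0.36) and the median log2 ratio was 0.068. Of all genes, 3.02% were higher and 6.66% lower in those cells, so both counts are near the background. In cells without Mki67, 5 of 18 glycolysis members were higher and 0 lower (median 0.25), and 2 hypoxia members were higher and 2 lower, beside 4.89% of all genes higher and 12.7% lower. These 8 groups overlap and come from the same 2 libraries, so they are not replicates.

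Havcr2 status separated the members more than the library did. In both libraries, 15 of 18 glycolysis members were higher in Havcr2-positive cells and 0 lower, with median log2 ratios of 0.80 in the control and 0.71 in the NK-depleted library. The background was 12.9% of genes higher and 7.19% lower. Slc16a3 had the largest glycolysis ratio: control cells stood at 15.4 CPM without and 39.8 CPM with Havcr2 (2.59-fold), and NK-depleted cells at 19.4 and 50.2 CPM (2.59-fold). In the same order, Tpi1 stood at 131 and 326 CPM (2.49-fold), then at 213 and 448 CPM (2.10-fold). Ldha stood at 437 and 881 CPM, then at 585 and 1002 CPM. Slc2a3 was at 40.9 and 76.0 CPM, then at 40.6 and 84.5 CPM, and Hk2 at 12.7 and 22.0 CPM, then at 13.8 and 29.6 CPM. In each of these genes the positive cells of either library lay above the negative cells of both. The 3 members that did not count as higher in both libraries were Hk1, Gpi1 and Slc16a1. Slc16a1, which carries lactate in either direction, was at 14.2 and 15.9 CPM, then at 16.2 and 17.2 CPM, unlike the other lactate carrier.

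Among the hypoxia members, 8 of 12 were higher in Havcr2-positive cells of both libraries and 1, Pdk1, was lower (medians 0.46 and 0.54). Bnip3 stood at 9.48 CPM in negative and 27.3 CPM in positive control cells, and at 18.7 and 52.5 CPM in NK-depleted cells. Its positive control cells lay above the negative NK-depleted cells, so that status and library each accompanied a difference. Bhlhe40 was at 209 and 373 CPM, then at 166 and 288 CPM, and Hif1a at 344 and 495 CPM, then at 284 and 430 CPM. Mxi1 was at 29.4 and 43.4 CPM, then at 13.7 and 30.9 CPM. Mxi1 and Bhlhe40 were thus higher with Havcr2 and lower in the NK-depleted library, which had more Havcr2-positive cells. Pdk1 ran the other way, at 33.0 and 23.9 CPM, then at 37.3 and 28.4 CPM. Ddit4 was at 33.2 and 44.8 CPM, then at 70.7 and 70.9 CPM, so that its ratio by Havcr2 in NK-depleted cells was 1.003 (0.961 to 1.05).

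Tcf7-positive cells showed the opposite. Of the 18 glycolysis members, 12 were lower in Tcf7-positive cells of both libraries and 0 higher (medians -0.41 and -0.53), and 8 of 12 hypoxia members were lower and 1, Pdk1, higher (-0.39 and -0.42). The background was 9.62% lower and 6.3% higher. Slc16a3 stood at 33.7 CPM in Tcf7-negative and 19.6 CPM in Tcf7-positive control cells, then at 44.6 and 24.3 CPM. Bnip3 stood at 23.3 and 11.9 CPM, then at 46.1 and 24.5 CPM. The values of Aldoa were 697 and 463 CPM, then 955 and 624 CPM. Pdk1 was at 23.5 and 37.0 CPM, then at 29.3 and 37.3 CPM. Pdk1 was the only hypoxia member past the filter that was lower with Havcr2 and higher with Tcf7 in both libraries, and at matched depth, described below, only its difference by Tcf7 still counted. Dendritic cell markers moved with both statuses in the summed counts: they were at 172 CPM in Havcr2-negative and 266 CPM in Havcr2-positive control cells (84.7 and 186 CPM in NK-depleted cells), and at 168 CPM in Tcf7-negative and 340 CPM in Tcf7-positive control cells (110 and 221 CPM). Without the cells that carried 3 such markers, the marker sum was 12.8 and 13.0 CPM. The counts of 15 and 8 members higher by Havcr2 and of 12 and 8 lower by Tcf7 were then the same. The share of all genes called without those cells is not given here.

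Dividing cells differed less. By Mki67, 9 of 18 glycolysis members were higher in positive cells of both libraries and 0 lower (medians 0.40 and 0.39), beside 15.2% of all genes higher and 6.84% lower. Tpi1 stood at 162 and 318 CPM in Mki67-negative and Mki67-positive control cells (1.96-fold) and at 242 and 426 CPM in NK-depleted cells (1.76-fold). Ldha stood at 526 and 843 CPM, then at 649 and 956 CPM. Of the 12 hypoxia members 2 were higher, which is near the 15.2% of all genes and so not a result about these members. The 2 were Bnip3 at 14.6 and 24.3 CPM, then at 30.5 and 44.5 CPM, and Ankrd37 at 10.9 and 13.9 CPM, then at 12.4 and 16.2 CPM. The medians of the hypoxia members were 0.22 and 0.17. Hif1a stayed short of the fold counted in both libraries, at 417 and 440 CPM, then at 375 and 371 CPM.

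For Gzmc, 11 of 18 glycolysis members were higher in positive cells of both libraries (medians 0.53 and 0.42) and 2 of 12 hypoxia members, Bnip3 and Bhlhe40 (medians 0.13 and 0.20), beside 9.68% of genes higher and 6.93% lower. Pgk1 stood at 279 and 459 CPM, then at 356 and 518 CPM. Bnip3 stood at 16.5 and 27.9 CPM, then at 28.6 and 46.7 CPM. With 12 members, the hypoxia count of 2 is near the background of 9.68%. Without the cells that carried other markers, 3 hypoxia members were higher. The share of all genes higher without those cells is not given here.

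**Figure D2:**
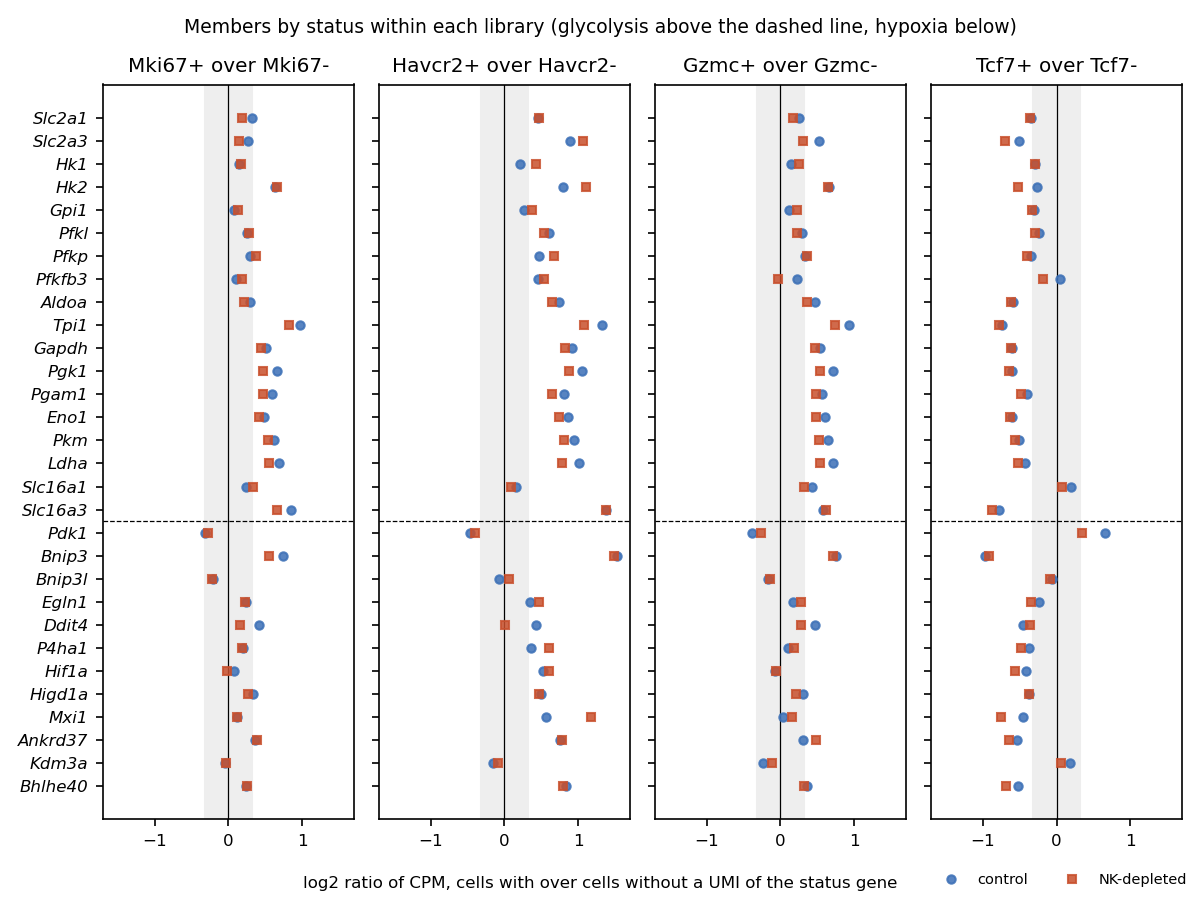
Each panel gives the log2 ratio of CPM in cells with over cells without a UMI of 1 status gene, for the 30 members past 10 CPM, with circles for the control and squares for the NK-depleted library and a grey band for the fold counted either way. In the Havcr2 panel most points lie right of the band, in the Tcf7 panel most lie left of it, and Pdk1 lies on the opposite side from most members in both.

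Cells with a UMI of Mki67, Havcr2 or Gzmc had more UMIs in general. In the control, medians were 18516 UMIs in Mki67-positive and 9786 in Mki67-negative cells, 17841.5 and 9226 by Havcr2, and 22000 and 10558.5 by Gzmc. In the NK-depleted library they were 17728.5 and 9770.5, 16234.5 and 10038, and 16736 and 10050. By Tcf7 the libraries differed in direction, with 12330 UMIs in positive and 11161 in negative control cells but 11719 and 12546 in NK-depleted cells. The negative cells were therefore weighted to the depth of the positive cells, as a comparison added after the first values were seen. By Havcr2 the counts were still 15 glycolysis and 8 hypoxia members higher (background 7.82%). By Tcf7, 15 glycolysis and 9 hypoxia members were lower (14.3%). By Mki67, 1 glycolysis member, Tpi1, and 0 hypoxia members were higher (10.6%). By Gzmc, Hk2, Tpi1, Pkm and Slc16a3 were higher, as was the hypoxia member Bnip3 (3.68%). At matched depth Pdk1 no longer counted as lower with Havcr2, at log2 ratios of -0.43 in the control and -0.31 in the NK-depleted library, while it still counted as higher with Tcf7 (0.78 and 0.43). The Havcr2 and Tcf7 contrasts thus held at least as many glycolysis and hypoxia members in the main direction at matched depth, and the Mki67 contrast held fewer.

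**Figure D3:**
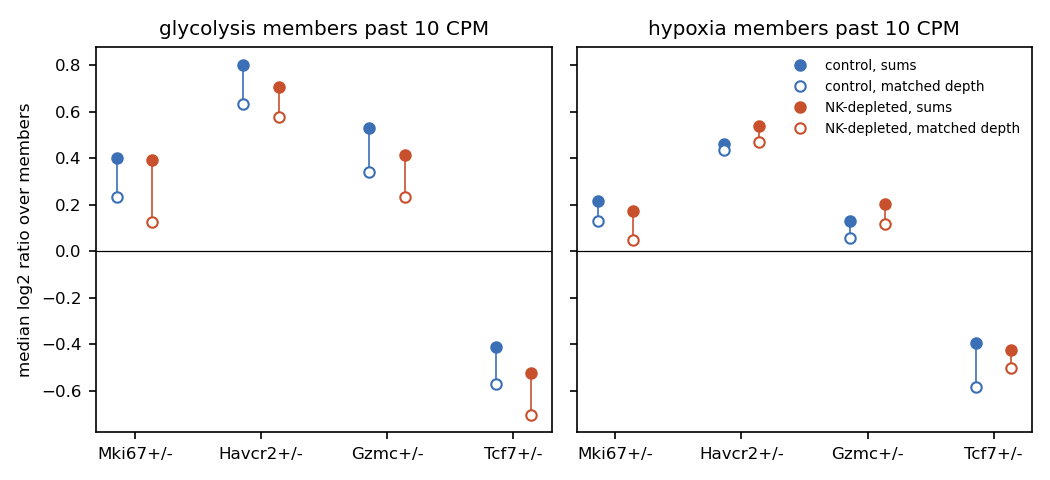
The vertical axis is the median log2 ratio over the 18 glycolysis members (left) and 12 hypoxia members (right) past 10 CPM, for cells with over cells without each status gene. Filled points are summed UMIs and open points have negative cells weighted to the depth of the positive cells. By Mki67 the glycolysis medians of 0.40 and 0.39 move toward 0 at matched depth, while by Tcf7 they move away from it.

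Taking Havcr2 and Tcf7 together ordered the cells in the same way in both libraries. Summed over its 20 members, glycolysis was lowest in Havcr2-negative Tcf7-positive cells, at 3223 and 3937 CPM. It was 4391 and 5858 CPM in cells with neither, 5844 and 7091 CPM in cells with both, and 7439 and 8863 CPM in Havcr2-positive Tcf7-negative cells. The hypoxia sum had the same order, from 874 and 801 CPM to 1508 and 1446 CPM. Within each of the 4 groups of cells, the glycolysis sum was higher and the hypoxia sum lower in the NK-depleted library. Hif1a and Bhlhe40 made up much of the hypoxia sum: in Havcr2-positive Tcf7-negative cells they reached 897 and 751 CPM, and the other 13 members together 611 and 695 CPM. In each of the 4 groups the sum of those 13 was higher with NK depletion, opposite to the whole. Cells with both genes were few (447 and 676) and deep (median 28319 and 22483 UMIs). Doublets were not removed, and their part in these values was not tested. In cells without Mki67 glycolysis kept this order, from 2920 and 3395 CPM to 6802 and 8566 CPM. The hypoxia sum kept it in the control, while in the NK-depleted library cells with both genes (1074 CPM) lay below cells with neither (1115 CPM).

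Bnip3 followed this order. It was at 6.44 CPM in Havcr2-negative Tcf7-positive control cells, 11.7 CPM with neither, 19.0 CPM with both and 30.2 CPM in Havcr2-positive Tcf7-negative cells. In the NK-depleted library it was at 11.8, 24.6, 41.1 and 55.9 CPM in the same groups. Pdk1 was highest in Havcr2-negative Tcf7-positive cells, at 41.8 and 41.4 CPM, and lowest in Havcr2-positive Tcf7-negative cells, at 21.6 and 27.3 CPM.

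**Figure D4:**
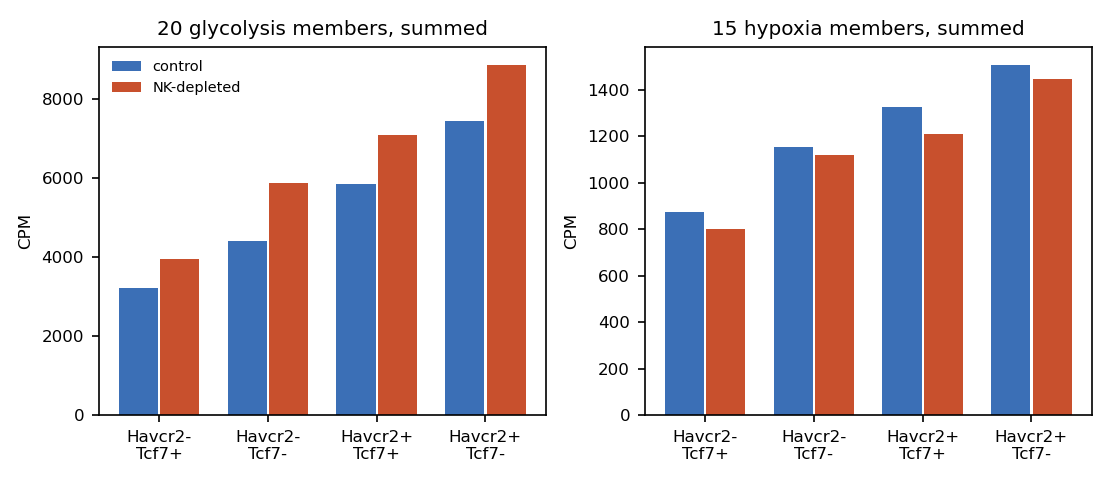
Bars give the summed CPM of the 20 glycolysis members (left) and the 15 hypoxia members (right) in the 4 groups of cells by Havcr2 and Tcf7, from 1 library per bar and so with no error bar. Both sums are lowest in Havcr2-negative Tcf7-positive cells and highest in Havcr2-positive Tcf7-negative cells, where glycolysis reaches 7439 CPM (control) and 8863 CPM (NK-depleted).

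To set enzymes against hypoxia targets cell by cell, the cells of each library were ranked by the share of their UMIs from the 20 glycolysis members and cut into 5 bins of equal size. Hypoxia members were then counted with the glycolysis UMIs left out of the totals. The median cell gave 0.402% of its UMIs to glycolysis in the control and 0.540% in the NK-depleted library, and 0.110% and 0.107% to the hypoxia members. From the lowest to the highest bin, the hypoxia sum went from 734 to 1633 CPM in the control and from 667 to 1684 CPM in the NK-depleted library. In the top bin of both libraries, 9 of 12 hypoxia members were higher and 0 lower, beside 29.6% of all genes higher and 17.1% lower. The bins also differed in kind of cell and in depth: Havcr2-positive cells made up 5.94% of the lowest and 76.1% of the highest control bin (10.7% and 80.4% in the NK-depleted library), Tcf7-positive cells 55.9% and 10.7% (66.6% and 10.5%), and median depth was 8308 and 18134.5 UMIs (8486 and 17851). Their part in the hypoxia values was not tested.

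Bnip3 followed the enzymes most steeply of the 12. In the control it stood at 2.77, 4.39, 6.27, 13.3 and 47.7 CPM from the lowest to the highest bin, and in the NK-depleted library at 5.86, 8.27, 13.1, 27.7 and 101.8 CPM. The top bin was 17.2 and 17.4 times the lowest, and in each bin the NK-depleted value lay above the control value. The bins were cut within each library, so this does not compare cells of equal glycolysis share. The median share was 0.187% in the control and 0.227% in the NK-depleted library in the lowest bin, and 0.879% and 1.119% in the highest. Ankrd37 stood at 4.11 and 21.9 CPM in the lowest and highest control bins and at 3.80 and 28.3 CPM in those of the NK-depleted library (5.32- and 7.44-fold). Bhlhe40 stood at 121 and 385 CPM, then at 98.5 and 320.1 CPM (3.18- and 3.25-fold). P4ha1 stood at 22.1 and 53.4 CPM, then at 16.6 and 64.5 CPM. Hif1a levelled off, with 210 CPM in the lowest, 509 CPM in the fourth and 505 CPM in the highest control bin (172, 421 and 447 CPM in NK-depleted cells). Kdm3a was flat, at 28.8 and 28.7 CPM, then at 29.3 and 29.5 CPM. Pdk1 was U-shaped, at 42.5, 23.1 and 28.2 CPM in the lowest, middle and highest control bins and at 42.4, 26.6 and 37.1 CPM in the NK-depleted library.

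**Figure D5:**
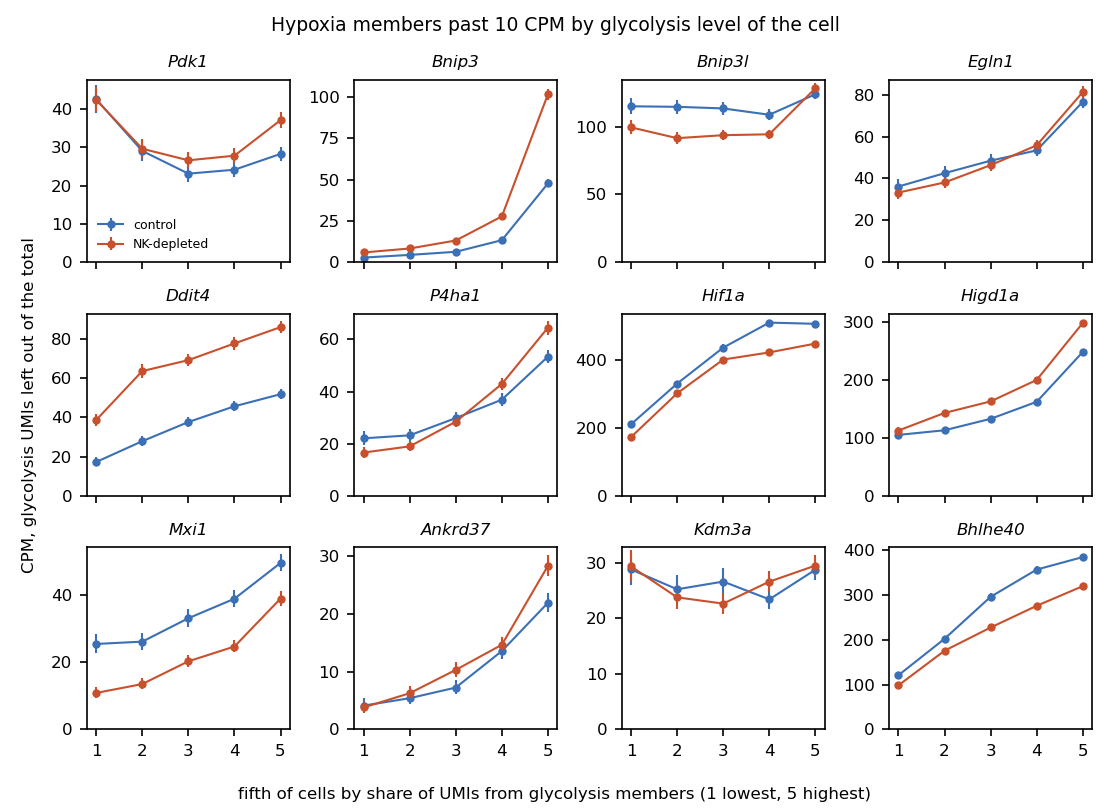
Each panel plots the CPM of 1 hypoxia member past 10 CPM, with glycolysis UMIs left out of the total, over 5 bins of cells ranked by their glycolysis share of UMIs, in the control (blue) and NK-depleted (red) libraries with 95% counting intervals. Bnip3 climbs to 47.7 and 101.8 CPM in the top bin, Kdm3a is flat and Pdk1 is lowest in the middle bins. Bins were cut within each library, so the same bin does not mean the same glycolysis share in both.

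Within Havcr2-positive cells alone, ranked and cut anew, 9 of 12 hypoxia members were again higher in the top bin of both libraries, but they were not the same 9. Of all genes, 15.6% were higher and 15.1% lower there. Hif1a, at log2 ratios of 0.17 and 0.319, and Bhlhe40, at 0.30 and 0.58, no longer counted, while Pdk1 (0.56 and 0.73) and Bnip3l (0.39 and 0.59) did. Bnip3 was at 4.16 and 3.81 there, and Ankrd37 at 2.12 and 2.54. In Havcr2-negative cells Pdk1 was at -0.52 and -0.12. Among Havcr2-positive cells Pdk1 was thus higher where the enzymes were high. These bins still differed in kind of cell and in depth. Tcf7-positive cells made up 30.6% of the lowest and 5.08% of the highest control bin (33.2% and 6.58% in the NK-depleted library). Median depth was 12648 and 20341 UMIs (11550 and 18486). Their part in these values was not tested.

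The other genes of these pathways, from lists that the members are not part of, gave a mixed account between libraries. The background for the counts below is 5.88% of all genes past the filter higher and 11.4% lower. Of 38 other glycolysis and branch genes, 18 passed the filter, 2 were higher in the NK-depleted library and 0 lower (median -0.054). Eno1b was at 6.22 and 14.4 CPM, with the uncertainty named for Eno1, and Tkt, a transketolase of the pentose phosphate pathway, at 126 and 158 CPM. Of 35 other hypoxia genes in the files, 18 passed, 4 were higher and 4 lower (median -0.10). Cited2, which competes with HIF-1 for its coactivator, was at 54.5 and 38.7 CPM, Rora at 43.7 and 31.5 CPM, Ndrg1 at 13.0 and 17.2 CPM and Ero1l, an oxidase of protein folding, at 37.3 and 48.9 CPM. Of 15 Myc and mTORC1 nutrient genes, 14 passed, 5 were higher and 0 lower (median 0.25). Slc7a5, an amino acid transporter, was at 14.8 and 24.9 CPM and Eif4ebp1, a brake on translation, at 14.6 and 21.1 CPM.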

How the data were processed

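Gene by barcode UMI counts from 2 single-cell 10x 5' libraries were analysed. The deposited counts are raw whole numbers from the authors' run of Cell Ranger 6.1.2, a version given per the file headers. Per the submitters' processing notes, the build was mm10 and Seurat 4.0.6 was used. The deposited matrices hold 7866 control and 10111 NK-depleted barcodes and carry no cell annotation. The filters on genes, mitochondrial share and Cd3 and Cd8 transcripts kept 7163 and 8353 barcodes, then gated 6901 (96.3%) and 8164 (97.7%), with 106462391 and 125332343 UMIs and a median mitochondrial share of 2.27% and 2.80%.

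Counts were summed per library and population, scaled to CPM and compared as ratios with exact binomial 95% intervals. Shares of cells differ by depth, so each was also read after thinning to 5000 UMIs. With 1 library per group no model was fitted and no p-value computed. The ratio code was tested on simulated data. Scrublet in scanpy 1.11.5, at an expected doublet rate of 0.08, called 1 and 0 doublets, so the caller did not work. No doublets were removed, and leaving out the 8% of cells with the highest scores was an alternative. The libraries shared 391 barcodes, 136 of them among kept and 26 among gated barcodes. They were not removed, and leaving them out was another alternative.

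The members and lists were chosen with earlier results of these data known. The text names all 35 members, the 4 status genes and, of each list of other genes, those with the largest differences past the filter. Weighting to matched depth, leaving out cells with other markers, shared barcodes or the members' own UMIs, and ranking within Havcr2 status were chosen after seeing the data. Gene positions are from GENCODE M21 (GRCm38, the same assembly as mm10). Tools were Python 3.11.15, numpy 2.4.6, scipy 1.17.1, pandas 2.3.3, R 4.3.3 and edgeR 4.0.16 (for TMM factors only).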

Additional observations from a re-analysis of the deposited data

Results flagged for a closer look

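Barcodes that passed the gene and mitochondrial filters but not the Cd3 and Cd8 gate carried glycolysis transcripts outside the population described. In the control library, 262 such barcodes (median 1003.5 UMIs) held a glycolysis sum of 4225 CPM, and in the NK-depleted library 189 barcodes (median 1020 UMIs) held 3725 CPM, where 3 UMIs correspond to 3.61 and 5.55 CPM. Vegfa was at 38.5 CPM (32 UMIs) in the control barcodes outside the gate and at 9.26 CPM (5 UMIs) in the NK-depleted ones. Bnip3 rested on 21 and 17 UMIs there.

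Bnip3l pointed in opposite directions by Havcr2 status, with a log2 ratio of -0.075 in the control and 0.067 in the NK-depleted library, and counting intervals that did not reach 1. The difference between libraries was not tested, and both values are far short of the fold counted.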

How the results depend on the processing

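No value past the fold counted changed direction under an alternative, but the hypoxia median, near 0 at 0.042, fell below 0 under 2 of them. Over the counts and medians, 133 values under alternatives stayed near the reported one and 39 moved. Glycolysis members higher in the NK-depleted library numbered 10 with median-of-ratios size factors, 2 at the control's status shares (beside 2.32% of all genes) and 0 at 1.5-fold. Their median log2 ratio was 0.32 with TMM factors, 0.34 with size factors, 0.30 in thinned cells and 0.12 at the control's status shares. Hypoxia members higher there numbered 4 with size factors, 4 without the filter and 1 at 50 CPM or more. Lower ones numbered 1 with TMM factors, size factors, means over cells, thinned cells, 50 CPM, 1.5-fold and without cells with dendritic cell or macrophage markers, and Mxi1 was lower in all 14 of its settings but Bhlhe40 in 10 of 15. The hypoxia median was 0.10 with TMM, 0.12 with size factors, -0.021 as a mean over cells, 0.19 without the filter and -0.085 at 50 CPM. For settings other than the control's status shares, the share of all genes called is not given here. These counts therefore show only how the calls depend on the processing.

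At 1.5-fold, members higher with Mki67 numbered 3 for glycolysis and 0 for hypoxia, higher hypoxia members with Havcr2 3, higher members with Gzmc 2 and 1, and lower members with Tcf7 6 and 1. At 50 CPM, hypoxia counts were 0 with Mki67, 4 with Havcr2, 1 with Gzmc and 4 with Tcf7. At matched depth, higher glycolysis and hypoxia members numbered 1 and 0 with Mki67 (beside 10.6% of all genes) and 4 and 1 with Gzmc (3.68%). Thinned cells and means over cells each left 1 hypoxia member higher with Mki67. Except at matched depth, the share of all genes called under these settings is not given here, so the counts are not results about the members. The median over all genes was -0.063 as reported, -0.0048 with TMM and 0.016 with size factors.

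No paired analysis was possible because each group is 1 library. Ratios close to the fold counted, such as those of Bhlhe40, Gapdh and Ldha, change sides with the scaling. Members under 10 CPM and the status of shallow cells are limited by depth, and intervals leave out the spread between mice, which 1 library per group cannot show.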
